A study of Mus musculus with 30 samples.

Results

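The 8 RNA-seq libraries described here hold hematopoietic stem cells (HSCs) taken straight from the bone marrow of mice that were not treated, and they come from 2 control sets of the series. Members were chosen by label: Untreated 1 to 4, the controls of an experiment on the cytotoxic drug 5-fluorouracil (5-FU), and Uncultured 1 to 4, the controls of an experiment in which HSCs were kept in culture. They are 8 of the 30 libraries of the series. Every library was made from 100 sorted cells of C57BL/6 mice aged 8 to 10 weeks. The sorting gate was Lineage- CD150+ CD48- EPCR+ for both sets. Nothing in the labels says how many mice gave a library, whether animals were pooled, or whether the Untreated mice received a vehicle, so the p-values below measure the spread between libraries, which may in part be technical. The sets share strain, tissue, age and gate, and differ in the experiment they belong to, so any date, operator or cage effect cannot be told apart from the set.

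HSCs are the cells that maintain all blood lineages for life. In adult marrow most of them are quiescent, a state held by cell cycle inhibitors, by signals from the niche such as stem cell factor acting on Kit, and by transcription factors such as Gata2, Hlf and Mecom. They are known for a low rate of protein synthesis, for a store of megakaryocyte transcripts such as Vwf in a share of the cells, and for surface proteins by which they can be isolated: CD150 is the product of Slamf1, EPCR that of Procr, and CD48 that of Cd48.

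The libraries held 5208722 to 6862215 exon reads and detected 14602 to 14918 genes with at least 1 exon read. Levels are given below as CPM, exon reads scaled to a common library total after TMM normalization, when a gene is compared between libraries, and as TPM, which also divides by exon length, when genes are compared with each other. Reads in introns made up 68.5 ± 0.765% (SD, n = 4) of exon and intron reads in Untreated and 70.4 ± 0.500% (SD, n = 4) in Uncultured libraries. That difference of 1.85 percentage points had a two-sided exact permutation p of 0.0286, the smallest that 4 against 4 can give, and 0.229 after Benjamini-Hochberg adjustment over the 8 measures tested. Across 8282 genes, Pearson's r of log2 levels ran from 0.954 to 0.972 within Untreated pairs, from 0.943 to 0.962 within Uncultured pairs and from 0.937 to 0.964 between the sets, values given as descriptions because genes are not independent replicates.

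The libraries matched their gate. Procr was at 80.9, 77.3, 65.9 and 80.4 CPM in Untreated 1 to 4 and at 47.0, 60.5, 70.6 and 61.9 CPM in Uncultured 1 to 4. Slamf1 lay between 23.1 and 36.5 CPM, Kit between 1058 and 1511 CPM, and Ly6a, which encodes the stem cell antigen Sca-1, between 60.9 and 96.6 CPM. Cd48 was at most 0.949 CPM in Untreated and at most 3.55 CPM in Uncultured libraries. The T cell gene Cd3e had 0 reads in all 8 libraries, which allows up to 0.440 to 0.569 CPM a library, the level of 3 reads. None of these genes passed the test between the sets. Their edgeR log2 differences, Uncultured minus Untreated, were -0.34 for Procr, -0.36 for Slamf1, -0.24 for Kit and -0.37 for Ly6a, with adjusted p from 0.093 to 0.21, and Cd48 was too low to be tested.

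Several libraries stood apart through transcripts known from other blood or marrow cells, and the source of these transcripts was not tested. In bulk samples, more cells of a type and more RNA per cell cannot be told apart. In Untreated 3, 13 of the 23 members of the neutrophil and myeloid granule list that reached 1 CPM anywhere were at their highest. S100a8, a calcium-binding protein of neutrophils, was at 925 CPM there and at most 13.4 CPM elsewhere, and Ngp was at 429 CPM, S100a9 at 271, Ltf at 254 and Chil3 at 247, against at most 1.85 CPM in any other library. Uncultured 1 and Uncultured 4 held a different set from the same list: Mpo at 1728 and 1053 CPM, Elane at 255 and 224, and Ctsg at 122 and 61.2. Mpo, Elane and Ctsg, enzymes of the primary granules made by early granulocyte progenitors, were at most 2.16 CPM in the other 6 libraries. The summed granule list was 833 to 973 CPM in Untreated 1, 2 and 4 and in Uncultured 2 and 3, and 3491, 3258 and 2463 CPM in Untreated 3, Uncultured 1 and Uncultured 4. The summed stromal list was 880 CPM in Uncultured 1 and 305 to 392 CPM in Untreated libraries, and Uncultured 1 was highest for 15 of 17 members, with the niche chemokine Cxcl12 at 287 CPM against at most 26.7 elsewhere, Igfbp5 at 99.3, Lepr at 22.2 and Kitl at 14.503. Uncultured 2 was highest for 18 of 30 megakaryocyte members, with a sum of 4494 CPM against 3504 to 3627 CPM in Untreated libraries, with the platelet chemokines Ppbp at 180.3 CPM against at most 3.81 elsewhere and Pf4 at 79.4 against at most 11.3.

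Early B lineage transcripts were seen in Untreated 2 and 3. Rag1, which cuts DNA in antigen receptor rearrangement, was at 42.1 and 25.8 CPM there and had 0 reads in the other 6. Dntt was at 10.8 and 11.96 CPM, Igll1 at 10.1 and 14.04, Vpreb1 at 12.5 and 9.87, and Vpreb3 at 10.8 and 12.5, while none of these 4 exceeded 1.17 CPM elsewhere. The summed B cell list spanned 58.1 to 185 CPM in Untreated and 46.1 to 69.4 CPM in Uncultured libraries. The summed macrophage, T and NK, and endothelial lists spanned 338 to 463 CPM, 84.8 to 143 CPM and 2011 to 2654 CPM over the 8 libraries. Single members stood apart within them. Cybb, a subunit of the phagocyte oxidase, was at 45.4 CPM in Untreated 3 and at most 3.88 elsewhere, and Nkg7, a granule protein of cytotoxic cells, was at 55.8 and 39.01 CPM in Uncultured 1 and 4 and at 6.73 to 17.3 elsewhere. The mast cell list averaged 4.43 on the log2(CPM + 1) scale in Uncultured 1 and 1.64 to 2.67 in the other 7 libraries.

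Among genes listed with an exon, the most abundant messages of these HSCs were those of the translation apparatus. Mitochondrial messages such as COX1 are listed with no exon and could not be ranked by TPM. Of the 30 genes with the highest mean TPM over the 8 libraries, 20 encode cytosolic ribosomal proteins and 3 encode factors of translation: Eef1a1 and Eef2, which carry tRNA to the ribosome and move it along, and Tpt1. The remaining 7 were Actb, B2m and H2-K1, the globins Hbb-bs and Hbb-bt, Rack1, a scaffold protein of the ribosome, and Lars2. Together the 30 held 16.1% of all TPM, with 15.0 to 17.9% in single libraries. Ribosomal protein and MHC class I genes share much sequence with copies elsewhere, and 12 of the 30 remained when only unique reads were ranked. Eef1a1 averaged 10912 ± 1319 TPM (SD, n = 8), Rplp1 9398 ± 2549, Actb 8800.2 ± 1504, Rpl41 8029 ± 775, Rps12 7694 ± 312 and Rpl32 7379 ± 897. Lars2, a mitochondrial leucyl-tRNA synthetase, had the highest value of all at 13439 ± 2720 TPM. The Lars2 gene carries a repeat derived from ribosomal RNA, and its value is not read here as expression of the enzyme.

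**Figure D1:**
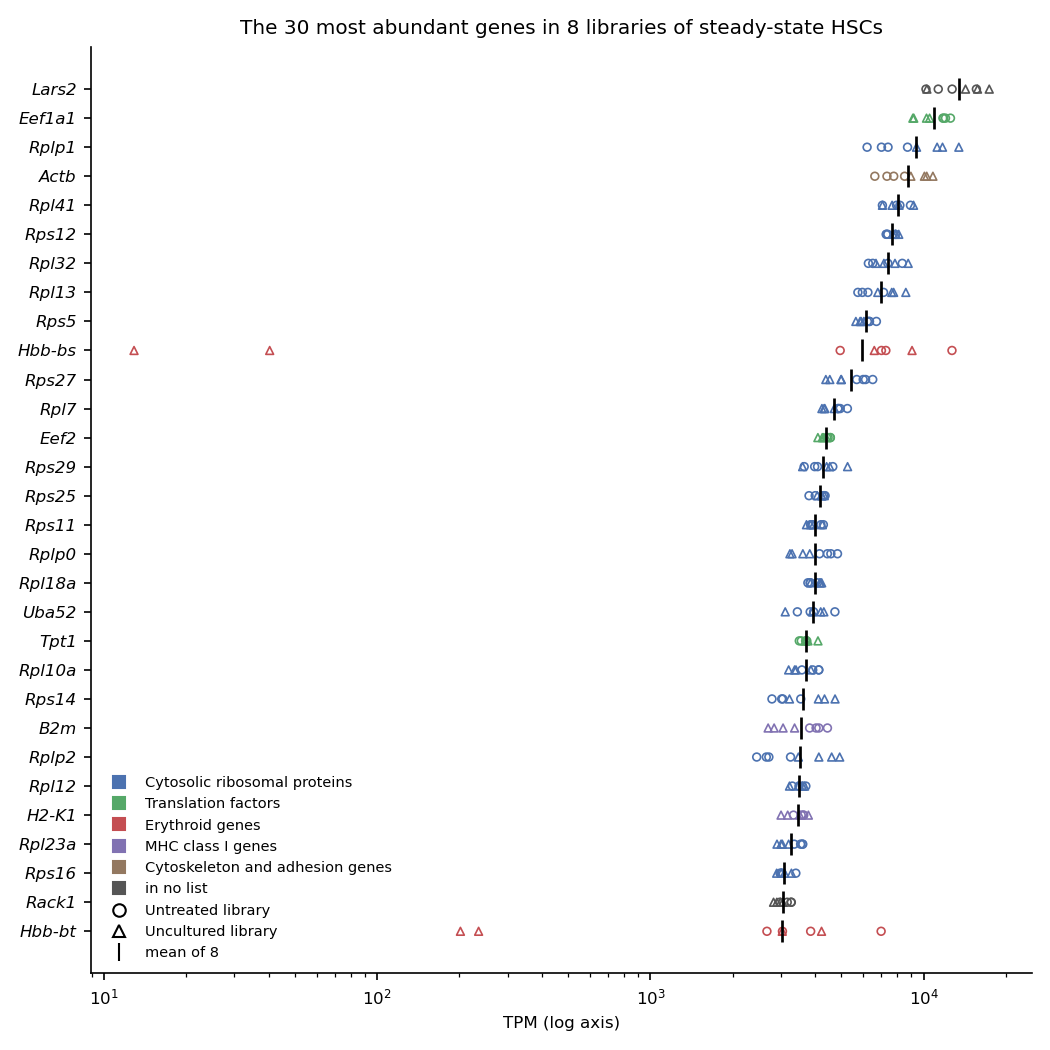
TPM on a log axis of the 30 genes with the highest mean over the 8 libraries, with a circle for each Untreated and a triangle for each Uncultured library, a bar at the mean of 8, and colour by function. Ribosomal protein genes fill 20 of the 30 places, and Hbb-bs and Hbb-bt spread most widely, with Hbb-bs running from 12.9 to 12703 TPM.

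Summed by function, cytosolic ribosomal proteins held 18.4% of TPM (17.0 to 19.9% over the libraries), translation factors 3.07% and cytoskeleton and adhesion genes 2.59%. Erythroid genes held 1.64%, with 0.199 to 3.26% over the libraries. Nuclear oxidative phosphorylation genes held 1.36%, RNA-binding and splicing factors 1.35% and MHC class I genes 1.21%. Genes that define HSCs by their surface held 1.36% and HSC transcription factors 0.773%. The highest surface gene was Adgrg1, an adhesion receptor also called GPR56, at 2538 ± 193 TPM (SD, n = 8), and among the others named Ifitm1 was at 1509 ± 266, the tetraspanin Cd81 at 696 ± 53.03 and Kit at 665 ± 95.03. Lmo2, the bridge protein of the Scl and Gata complex, led the transcription factors at 1646 ± 207 TPM. Hlf followed at 664 ± 59.2, Etv6 at 619 ± 57.9, Myb at 601 ± 55.7 and Gata2 at 411 ± 44.9. The means of Hlf, Etv6 and Myb lie close together against their SDs, while Lmo2 stands above them and Gata2 below them by more than the SDs.

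Among quiescence genes Txnip, an inhibitor of thioredoxin and glucose uptake, averaged 1576 ± 197 TPM and Foxo3 272 ± 21.05. Egr1, an immediate early factor also in that list, averaged 1375 ± 1048 TPM, and its spread reached past the mean of Txnip. The chaperones Hspa8 at 1982 ± 424 and Hsp90ab1 at 1932 ± 176 TPM differed by less than their SDs. Ifitm3, an antiviral membrane protein, led the interferon response genes at 1924 ± 222 TPM. In glycolysis Ldha was highest at 798 ± 92.8 TPM and Pkm was at 660 ± 58.3. Pcna at 245 ± 29.99 TPM led the replication genes. The mitosis list summed to 0.149% of TPM, with 0.0705 to 0.251% over the libraries. Within it Bub3 at 89.6 ± 11.7 and Ncapd2 at 89.2 ± 31.0 TPM differed by less than their SDs. Malat1 and Neat1, nuclear long non-coding RNAs, are listed with no exon in the deposited table and have no TPM. Their reads stood at 2772 ± 121 and 518 ± 85.3 CPM, here of exon and intron reads together (SD, n = 8). The mitochondrial messages COX1 and COX3 also have no listed exon and stood at 1112 ± 140 and 470 ± 56.5 CPM by that measure. CYTB and ND1, with the same limit, stood at 155 ± 17.05 and 122 ± 26.1 CPM.

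In all, 13264 genes reached a mean of 1 TPM, 10032 reached 10 and 1910 reached 100.

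Most genes varied little between libraries of a set. Over the 8108 genes with a mean of at least 20 CPM, the pooled within-set SD of log2(CPM + 1) had a median of 0.162, and 83.4% of genes lay under 0.25. Only 46 genes, 0.567%, had an SD of 1 or more. The 20 most variable genes were 8 granule genes, 6 erythroid genes, the immediate early genes Egr3, Fosb and Nr4a1, the platelet gene Ppbp, the stromal gene Cxcl12, and Eps8l1, which is in no list. These genes were ranked by their spread, so the spread itself is a description and not a finding of a test.

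**Figure D2:**
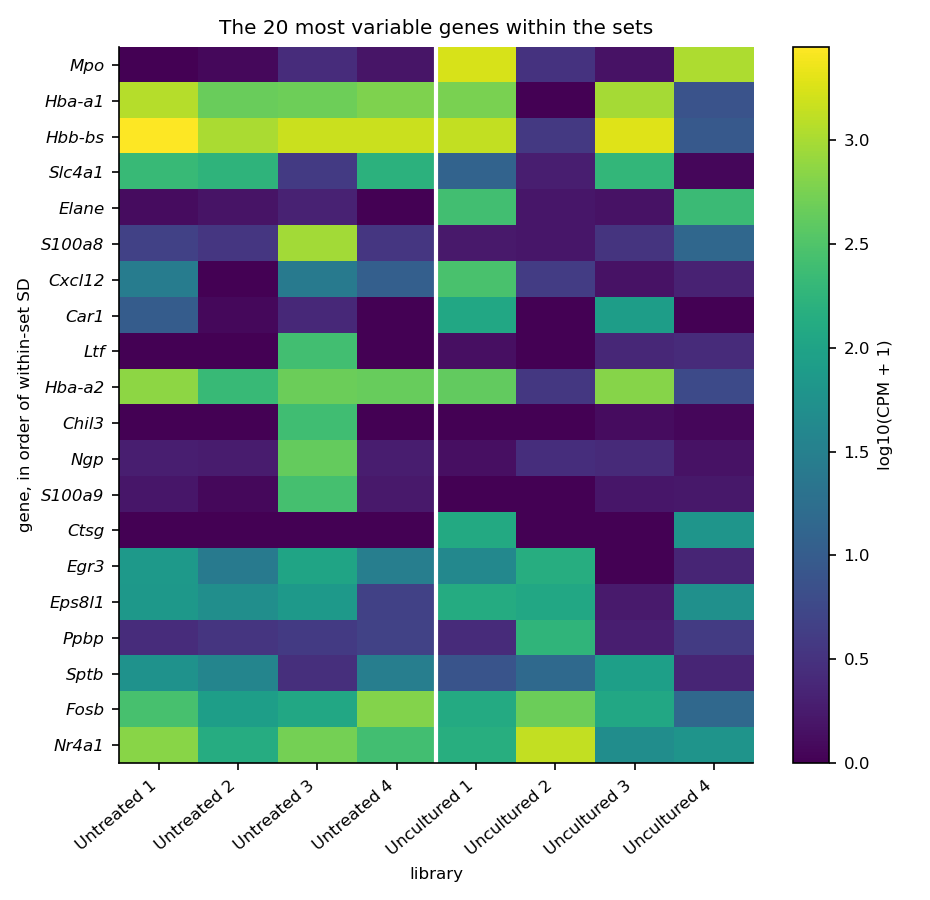
Heat map of log10(CPM + 1) for the 20 genes with the largest within-set SD (rows, in order of SD) in the 4 Untreated and 4 Uncultured libraries (columns, parted by a white line). Ltf, Chil3, Ngp and S100a9 are bright in Untreated 3 alone, Mpo, Elane and Ctsg in Uncultured 1 and 4, and the globins are dark in Uncultured 2 and 4.

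Erythroid transcripts were high in most libraries and nearly absent from a few. Hbb-bs, the adult beta globin, was at 2806, 1027, 1501 and 1488 CPM in Untreated 1 to 4 and at 1346, 2.77, 1920.3 and 8.33 CPM in Uncultured 1 to 4. The alpha globin Hba-a1 followed it, with 454 to 1174 CPM in 6 libraries, 0 reads in Uncultured 2 and 6.53 CPM in Uncultured 4. Globin and red cell membrane genes did not move as a single block. Slc4a1, the band 3 anion exchanger, was at 207, 172 and 164 CPM in Untreated 1, 2 and 4 and at 189 CPM in Uncultured 3, but at 2.85 CPM in Untreated 3, 11.4 in Uncultured 1, 0.924 in Uncultured 2 and 0.163 in Uncultured 4. Sptb, erythroid spectrin, ran from 1.31 CPM in Uncultured 4 to 88.3 in Uncultured 3. Car1, a carbonic anhydrase of red cells, was at 115 CPM in Uncultured 1 and 82.2 in Uncultured 3 and at most 9.13 elsewhere. Untreated 3 and Uncultured 1 thus held globins at the level of the other libraries with little Slc4a1. The source of this RNA was not tested.

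Eps8l1, a relative of the actin regulator Eps8, was at 67.6, 49.9, 70.4 and 3.67 CPM in Untreated 1 to 4 and 129.6, 117, 0.771 and 52.6 CPM in Uncultured 1 to 4. It was lowest in Untreated 4 and Uncultured 3, which were neither the granule libraries nor the libraries low in globin.

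Immediate early genes, which cells switch on within minutes of a signal, varied widely between libraries of a set. Of the 28 members with a mean of at least 20 CPM, 24 had a within-set SD above the 95th percentile of all such genes, which was 0.360, and the median over the 28 was 0.769. Uncultured 2 was highest for 25 of the 38 members that reached 1 CPM. Nr4a1, an orphan nuclear receptor that restrains HSC division, was at 693, 136, 529.6 and 249 CPM in Untreated 1 to 4 and at 144, 1372, 47.5 and 60.4 CPM in Uncultured 1 to 4. Fosb, a subunit of AP-1, was at 281, 85.3, 115 and 644 CPM in Untreated and at 128, 464, 116 and 13.5 CPM in Uncultured libraries. Egr3, a zinc finger factor, was at 72.9, 24.4, 102 and 29.0 CPM and then at 39.1, 140.2, 0 and 1.31 CPM. The order of the libraries differed between members: Nr4a1, Egr3 and Zfp36 were highest in Uncultured 2, but Fosb and Dusp1 were highest in Untreated 4. Dusp1, a phosphatase of MAP kinases, was at 449, 158, 374 and 627 CPM in Untreated and at 160.3, 436, 98.3 and 86.4 CPM in Uncultured libraries. Zfp36, which speeds the decay of AU-rich messages, was at 340.3, 124, 225 and 316 CPM and then at 181, 738, 128 and 144 CPM.

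The promoters of 4 of these genes are shown because serum response factor and CREB, factors that act on immediate early genes, bind the sequences searched for here. They are RefSeq sequences of build GRCm38.p6, from 250 bases before to 50 bases after the start, and capitals mark the CREB core TGACG or its reverse complement CGTCA, the full site TGACGTCA, and the CArG box of serum response factor. The Nr4a1 window is chr15:101266596-101266895 on the plus strand, that of Fosb chr7:19309996-19310295 on the minus strand, that of Dusp1 chr17:26508423-26508722 on the minus strand and that of Zfp36 chr7:28379179-28379478 on the minus strand.
Nr4a1: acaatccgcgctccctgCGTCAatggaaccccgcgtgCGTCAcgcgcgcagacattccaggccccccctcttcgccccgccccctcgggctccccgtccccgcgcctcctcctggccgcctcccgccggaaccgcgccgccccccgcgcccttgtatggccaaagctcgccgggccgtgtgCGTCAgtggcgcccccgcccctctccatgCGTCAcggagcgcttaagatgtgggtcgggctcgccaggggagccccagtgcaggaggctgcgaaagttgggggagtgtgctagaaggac
Fosb: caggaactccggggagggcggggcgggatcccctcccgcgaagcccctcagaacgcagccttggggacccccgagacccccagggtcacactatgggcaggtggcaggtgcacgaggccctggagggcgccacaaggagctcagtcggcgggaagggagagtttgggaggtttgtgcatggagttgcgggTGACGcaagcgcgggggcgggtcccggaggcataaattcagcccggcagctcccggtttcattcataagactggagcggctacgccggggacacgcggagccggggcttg
Dusp1: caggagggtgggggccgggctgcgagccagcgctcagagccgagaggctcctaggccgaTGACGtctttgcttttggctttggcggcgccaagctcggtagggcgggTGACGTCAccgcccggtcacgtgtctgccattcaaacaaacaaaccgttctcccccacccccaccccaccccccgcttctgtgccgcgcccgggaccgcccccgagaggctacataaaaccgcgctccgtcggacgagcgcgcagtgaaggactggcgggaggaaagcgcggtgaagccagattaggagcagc
Zfp36: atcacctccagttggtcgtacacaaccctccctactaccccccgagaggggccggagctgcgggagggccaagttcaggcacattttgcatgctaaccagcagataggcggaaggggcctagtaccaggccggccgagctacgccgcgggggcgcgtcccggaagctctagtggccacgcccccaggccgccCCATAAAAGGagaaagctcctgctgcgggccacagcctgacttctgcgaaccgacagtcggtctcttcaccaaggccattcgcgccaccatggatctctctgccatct
Nr4a1 had 4 copies of the core, at -233, -213, -69 and -40 bases from the start, and Fosb had 1 at -60. Dusp1 had 3, including the 2 that overlap in a full site at -143, and Zfp36 had a CArG box at -58. Both strands were searched. The core occurs in 20.8% of the 32851 promoters of the table and 4 or more copies in 0.231%, the full site in 1.79% and the CArG box in 1.63%. Egr1 and any listed gene on the same chromosome were left out of this count. Of the remaining 32 immediate early genes with an entry, which include the 4 shown, 19 had the core, 3 the full site and 3 a CArG box. These are matches of letters and say nothing of binding in these cells.

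Mitosis genes also varied between libraries. Uncultured 3 was highest for 45 of 61 members and Untreated 2 for 13, and the summed list ran from 797 CPM in Untreated 4 to 2736 CPM in Uncultured 3. Top2a, which untangles DNA before division, was at 58.9, 132, 61.3 and 38.6 CPM in Untreated 1 to 4 and at 86.5, 42.2, 139.7 and 87.5 CPM in Uncultured 1 to 4. Cdc20, an activator of the anaphase-promoting complex, was at 18.4, 39.1, 19.4 and 12.8 CPM and then at 40.9, 14.8, 60.9 and 50.9 CPM. Untreated 4 and Uncultured 2 were the lowest libraries of their sets for both genes, and Untreated 2 and Uncultured 3 the highest. Of 28 mitosis genes with a mean of at least 20 CPM, 25 had an SD above 0.360.

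**Figure D3:**
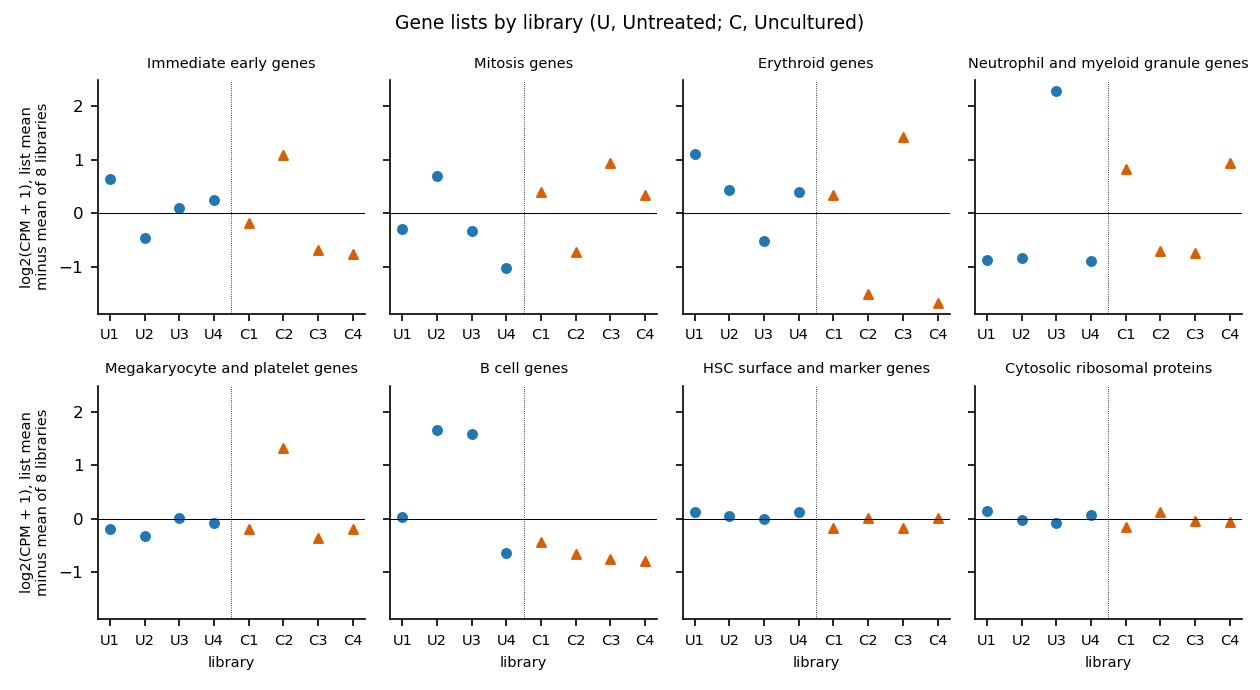
Mean log2(CPM + 1) of 8 gene lists in each library, minus the mean of the 8 libraries (U, Untreated, circles; C, Uncultured, triangles). Granule genes stand out in Untreated 3, Uncultured 1 and Uncultured 4, B cell genes in Untreated 2 and 3, megakaryocyte genes in Uncultured 2, and HSC surface and ribosomal protein genes are nearly level.

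At the other end stood genes that barely moved. Among 2600 genes with a mean of at least 100 CPM, the smallest within-set SD was that of Cst3, the protease inhibitor cystatin C, at 0.0195 on the log2 scale. It was at 127, 128, 128 and 127 CPM in Untreated 1 to 4 and at 108, 109, 108 and 112 CPM in Uncultured 1 to 4, so its sets did not overlap, although it missed the edgeR threshold with an adjusted p of 0.12. Sets without overlap in CPM were found for 1342 of the 12578 genes tested, or 10.7%. Peak1, a cytoskeletal pseudokinase, and Nono, an RNA-binding protein of paraspeckles, came next, with 129 to 139 CPM for Peak1 and 247 to 286 CPM for Nono. Translation factors had a median SD of 0.103, chromatin genes 0.112 and ribosomal proteins 0.125, against 0.162 for all genes. No ribosomal protein or translation factor gene at 20 CPM or more exceeded the 95th percentile of 0.360.

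The second question was which genes differ between the 2 sets, which the labels describe as the same kind of cell. Of 12578 genes tested with edgeR's quasi-likelihood test, 193 passed at a Benjamini-Hochberg adjusted p under 0.05, or 1.53%: 113 were higher in Uncultured (0.898% of genes tested) and 80 were lower (0.636%). The differences were mostly small. The median fold of the 193 was 1.42, and 18 of them reached 2-fold, 13 higher and 5 lower in Uncultured libraries. Over the 8275 genes with at least 20 CPM, 98.0% lay within 1.5-fold and 99.7% within 2-fold, with a median absolute log2 difference of 0.14. The first principal component, with 28.6% of the variance, still split the sets, from -12.5 to -6.29 in Untreated and from 3.56 to 16.6 in Uncultured libraries. The number of calls depended on every library. It was 121, 76, 65 and 42 without Untreated 1, 2, 3 and 4 and 111, 117, 31 and 44 without Uncultured 1, 2, 3 and 4. It was 2 without the 3 libraries that held granule transcripts. That fit held only Untreated 1, 2 and 4 and Uncultured 2 and 3, so fewer libraries were left to detect a difference. The part of the granule transcripts in the loss of calls was not tested.

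**Figure D4:**
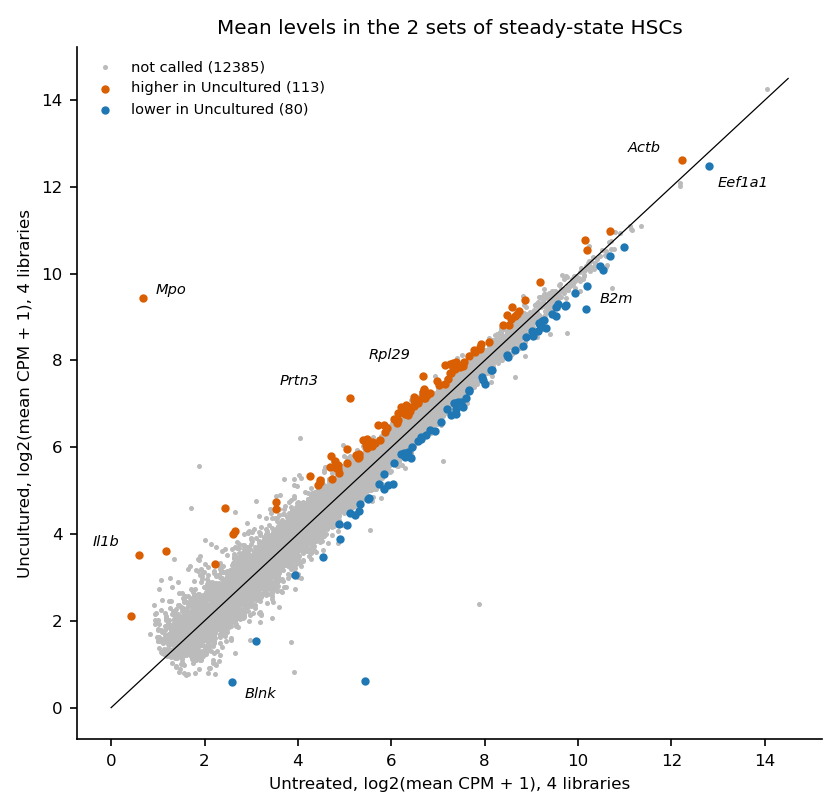
Mean level of each of the 12578 genes tested, as log2(mean CPM + 1), in the 4 Uncultured libraries (vertical axis) against the 4 Untreated libraries (horizontal axis), with the line of equal levels. The 113 called genes above the line and the 80 below it are coloured, and most lie close to the line.

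The 12 largest rises in Uncultured libraries, among called genes without overlap and at 32 CPM or more in the higher set, ran from 0.76 to 2.05 on the log2 scale. Prtn3, the granule protease proteinase 3, was at 32.7, 37.2, 37.8 and 27.7 CPM in Untreated 1 to 4 and at 217, 98.7, 76.0 and 169.6 CPM in Uncultured 1 to 4, a log2 difference of 2.05 (SE 0.28, edgeR adjusted p = 0.008). All 4 Uncultured libraries lay above all Untreated ones, as the rule required. These include Uncultured 2 and 3, where Elane was at 0.616 and 0.462 CPM, but the 2 highest were the libraries with Mpo, Elane and Ctsg. The part of those transcripts in the difference was not tested. Rpl29, a ribosomal protein of the large subunit, was at 116, 92.2, 94.3 and 100.2 CPM and then at 210.2, 198, 215 and 174 CPM, a log2 difference of 0.98 (SE 0.10, adjusted p = 0.00094). Only 15.4% of the Rpl29 reads were unique to it, and in unique reads alone the difference was 0.65 with an adjusted p of 0.057. Pim2, a kinase of cell survival and growth, was at 35.9, 37.9, 25.6 and 28.6 CPM in Untreated and at 61.1, 73.3, 62.6 and 49.8 CPM in Uncultured libraries (0.95, SE 0.15, adjusted p = 0.015). Cbx1, the heterochromatin protein HP1 beta, was at 49.2, 56.8, 52.9 and 46.1 CPM and then at 86.8, 77.1, 104 and 94.7 CPM (0.83, SE 0.11, adjusted p = 0.008). The rule admits only genes whose sets do not overlap, so the parting of the sets in these genes follows from the choice.

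Sh2d5, an adaptor with an SH2 domain, rose by 1.12 on the log2 scale, Ndufab1, the acyl carrier protein of mitochondria, by 0.93, Nckap5l by 0.80, the riboflavin transporter Slc52a2 by 0.78, the ubiquitin ligase Rnf126 by 0.76 and the ribosome binding factor Rbfa of mitochondria by 0.76. Runx3 and Ranbp1 rose by 1.10 and 0.89, but 0% of their reads were unique, so reads from similar sequences cannot be told apart from their own, and the same limit holds in part for Ndufab1 with 12.1% unique reads. In unique reads Ndufab1 had an edgeR adjusted p of 0.14 at a log2 difference of 0.96, and Rbfa, with 40.4% unique reads, 0.14 at 0.69.

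The 12 largest falls by the same rule were smaller, from -0.86 to -0.60. Amigo2, an adhesion protein, was at 75.3, 49.7, 50.9 and 50.5 CPM in Untreated 1 to 4 and at 27.0, 40.2, 29.1 and 30.5 CPM in Uncultured 1 to 4, a log2 difference of -0.83 (SE 0.17, edgeR adjusted p = 0.036). Ctnnal1, the catenin-like protein alpha-catulin used to mark HSCs in reporter mice, was at 57.6, 57.0, 51.2 and 74.9 CPM and then at 33.0, 41.7, 26.4 and 36.1 CPM (-0.81, SE 0.16, adjusted p = 0.03). Fads2, a fatty acid desaturase, was at 71.6, 90.8, 81.6 and 96.8 CPM in Untreated and at 56.0, 50.2, 48.1 and 57.8 CPM in Uncultured libraries (-0.69, SE 0.11, adjusted p = 0.017). Tspan3, a tetraspanin, was at 157, 149, 157 and 202 CPM and then at 123, 103, 102 and 101 CPM (-0.63, SE 0.11, adjusted p = 0.017). That no library of 1 set reached the range of the other in these 4 genes was required by the same rule.

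Ufc1, the conjugating enzyme of the ubiquitin-like modifier UFM1, had a log2 difference of -0.86, Kntc1, a kinetochore checkpoint protein, -0.82, Tmem258, a subunit of the oligosaccharyl transferase, -0.72, Eps8l2 -0.72, the small GTPase Rras -0.67, Trim5 -0.67 and the serotonin receptor Htr2a -0.60. Reads unique to the gene were 55.8% for Eps8l2 and 56.5% for Trim5 and over 97% for the other 5. Trim5 did not pass in unique reads (-0.47, edgeR adjusted p = 0.23).

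**Figure D5:**
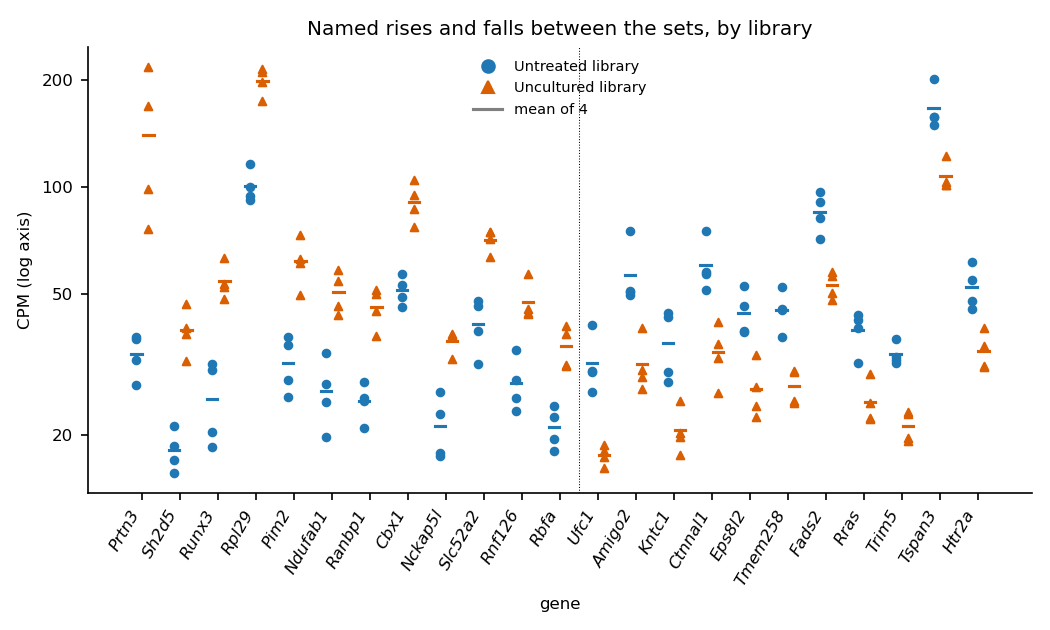
CPM on a log axis of 12 rises (left of the dotted line) and 11 falls (right) by the naming rule, with a circle for each Untreated and a triangle for each Uncultured library and a bar at the mean of 4. The rule admits only genes whose sets do not overlap, so the parting of the 4 Uncultured from the 4 Untreated libraries in the 23 genes follows from the choice.

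Of 45 HSC surface and marker genes tested, 3 fell and 1 rose in Uncultured libraries, beside 0.636% and 0.898% of all genes tested. Their median log2 difference was -0.20, with 35 of 45 below 0, beside a median of 0.00 and 49.8% below 0 over all genes tested. Those that fell were Ctnnal1, Pdzk1ip1, a small membrane protein known as Map17, and Tek, the angiopoietin receptor. Pdzk1ip1 was at 155, 154, 149 and 159 CPM in Untreated 1 to 4 and at 91.6, 108, 115 and 108 CPM in Uncultured 1 to 4 (-0.55, SE 0.08, edgeR adjusted p = 0.012). Tek was at 71.6, 74.8, 84.8 and 77.1 CPM and then at 58.7, 50.8, 58.4 and 55.2 CPM (-0.47, SE 0.10, adjusted p = 0.038). The gene that rose was Cd34, which adult mouse HSCs carry at a low level on the surface and progenitors at a high one, at 159, 189, 136 and 149.8 CPM and then at 239.9, 238, 304 and 196 CPM (0.63, SE 0.13, adjusted p = 0.04). All 4 called genes were also called in unique reads, but 1 to 3 genes of the list were called with 1 library left out and 0 without the 3 libraries that held granule transcripts. The number was 2 without Untreated 2 or 3 or Uncultured 4 and 1 without Untreated 4 or Uncultured 1 or 3. Several genes known for HSC identity or activation missed the threshold. Vwf, the platelet adhesion factor, had a log2 difference of -0.59 with an edgeR adjusted p of 0.091, and Mecom -0.33 with 0.053. Flt3, a receptor of multipotent progenitors, had 1.11 with an edgeR adjusted p of 0.11. Cdk6, a kinase of the exit from quiescence, had 0.67 with an edgeR adjusted p of 0.075, and Myc 0.62 with 0.063. Of these 5 genes, Flt3 and Cdk6 were picked after their values were seen. The 38 HSC transcription factors tested, Mecom among them, had a median log2 difference of 0.08, with 25 above 0.

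Of 30 quiescence and antiproliferative genes, 2 rose and 0 fell, beside 1.53% called of all genes tested, with a median of -0.08. Cdkn1b, the cell cycle inhibitor p27, rose and was at 94.2, 83.7, 87.1 and 76.0 CPM in Untreated and 99.1, 130.1, 127 and 125 CPM in Uncultured libraries (0.50, SE 0.10, edgeR adjusted p = 0.04). Among 38 HSC transcription factors 0 rose and 1 fell. By edgeR at the adjusted threshold none of 60 mitosis, 50 replication, 36 immediate early, 51 interferon, 24 glycolysis, 36 ATF4 and 31 p53 target genes passed. At an unadjusted edgeR p under 0.05 were 4, 8, 2, 11, 9, 7 and 5 of them, beside 17.0% of all genes tested. DESeq2 called 2, 2, 1, 4, 3, 1 and 0 of them, beside 627 of all 12578 genes. Nothing about these lists is read from such small counts. Mitosis genes had the largest median of these lists at 0.51, with 54 of 60 above 0, and the summed levels of the 2 sets overlapped, at 797 to 2349 CPM and 934 to 2736 CPM.

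Ribosomal proteins changed in both directions. Of 83 tested, 5 rose and 11 fell, beside 0.898% and 0.636% of all genes, with a median log2 difference of -0.06 and 41 at an unadjusted p under 0.05, against 17.0% of all genes tested. Those that fell include Fau, Rpl18, Rpl27, Rpl30, Rpl35, Rplp0, Rps24, Rps27, Rps3a1 and Rps4x, and the 5 that rose were Rpl29, Rplp1, Rplp2, Rps13 and Rpsa. Rps3a1 was at 729, 724, 705 and 802 CPM in Untreated 1 to 4 and at 468, 555, 531 and 534 CPM in Uncultured 1 to 4 (-0.50, SE 0.07, edgeR adjusted p = 0.011). The acidic stalk proteins moved apart. Rplp0 was at 2275, 1962, 1826 and 2068 CPM and then at 1407, 1756, 1487 and 1586 CPM (-0.38, SE 0.08, adjusted p = 0.041), while its partner Rplp1 was at 1413, 1065, 938 and 1152 CPM and then at 1408, 2123, 1738 and 1771 CPM (0.62, SE 0.13, adjusted p = 0.04). The sets overlapped for Rplp1, since Uncultured 1 lay below Untreated 1. Many ribosomal genes have near-identical pseudogenes: the median share of unique reads was 18.4% in the list, and of the 13 called genes that could be tested in unique reads, all 13 kept their direction and 6 passed.

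Translation factors showed 4 falls and 1 rise of 42, beside 1.53% called of all genes tested. Eef1a1 was at 7283, 6884, 6951 and 7459 CPM in Untreated and at 5259, 6345, 5417 and 5919 CPM in Uncultured libraries (-0.32, SE 0.06, edgeR adjusted p = 0.021). Eif3d and Eif3e, subunits of the initiation factor that binds the small ribosomal subunit, had differences of -0.45 and -0.44, and Eif4h, a helper of the helicase eIF4A, rose by 0.41. Naca, which guards new chains on the ribosome, was at -0.42 in all reads but at -0.04 in unique reads, so its call is uncertain.

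Other lists gave few calls in number. Beside 1.53% called of all genes tested, the share was 7.84% of 51 chromatin genes and 7.14% of 14 MHC class I genes. It was 1.85% of 54 RNA-binding genes. B2m, the light chain of MHC class I, was the only one of 14 class I genes called, at 1135, 1151, 1232 and 1152 CPM in Untreated and 923, 779.7, 806 and 847 CPM in Uncultured libraries (-0.48, SE 0.07, edgeR adjusted p = 0.008), and in unique reads it was at -0.42 with an adjusted p of 0.059. Actb was at 4399.8, 4576, 5281 and 4958 CPM and then at 5505, 6516, 6530.1 and 6701 CPM (0.39, SE 0.07, adjusted p = 0.02). Chromatin genes had 3 rises, Hmgn1 (0.68), Set (0.53) and H3f3a (0.38), and 1 fall, the histone methyltransferase Kmt2a (-0.30). F2rl3, the thrombin receptor PAR4, rose from 69.8 ± 4.30 to 109.8 ± 4.25 CPM (SD, n = 4 each), with an edgeR adjusted p of 0.0065. It was the only called gene of 27 tested in the megakaryocyte list. Uncultured 2, the library with platelet transcripts, was at 108 CPM beside 107, 116 and 108 CPM in the other 3. The part of platelet transcripts in the difference was not tested. Car2, a carbonic anhydrase, was the only called gene of 30 in the erythroid list (-0.45, adjusted p = 0.04). It was at 743 to 957 CPM in Untreated libraries, at 618 and 694 CPM in Uncultured 1 and 3, and at 571 and 616 CPM in Uncultured 2 and 4, the libraries nearly without globin. The part of erythroid transcripts in the Car2 difference was not tested. Single calls also came from Hnrnpa0 (0.46) of 54 RNA-binding genes, Cct8 (0.44) of 34 chaperones, Uqcrc1 and Ndufab1 of 81 oxidative phosphorylation genes, and Gnas of 21 imprinted genes. For Hmgn1 and Uqcrc1 0% of reads were unique, and H3f3a, with 14.3% unique reads, did not pass in them (edgeR adjusted p = 0.079).

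Some called genes lay outside the naming rule for the largest changes, because they were low, their sets overlapped or they are predicted genes. Il1b, the cytokine interleukin-1 beta, was at 0.961, 0.337, 0.569 and 0.147 CPM in Untreated 1 to 4 and at 7.53, 12.01, 9.56 and 12.9 CPM in Uncultured 1 to 4 (4.34, SE 0.48, edgeR adjusted p = 0.0024). It was the only called gene of 23 in the inflammatory list, beside 1.53% called of all genes tested. Mpo also passed (adjusted p = 0.045), but its sets overlapped, because Uncultured 2 and 3 were at 2.16 and 0.462 CPM and Untreated 3 at 1.71. Blnk, an adaptor of the B cell receptor, was at 2.88, 11.1, 3.99 and 2.05 CPM and then at 0.367, 1.23, 0.308 and 0.163 CPM (-3.20, SE 0.72, adjusted p = 0.048), and was highest in Untreated 2 and 3, the libraries with Rag1. The last 2 entries were picked after their values were seen. LOC105244034, a predicted gene with 0.19% unique reads, was at 46.8, 36.2, 38.7 and 48.1 CPM and then at 1.10, 0, 0 and 0.979 CPM. LOC105244208, which RefSeq names Rps6-ps4, a pseudogene of Rps6 with 0% unique reads, was at 1137, 1143, 1113 and 1225 CPM and then at 551, 626, 574 and 571 CPM (-0.99, SE 0.06, adjusted p = 2.4e-05).

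Other libraries of the 2 experiments were compared for these genes. The HSCs from 5-FU-treated mice were 4 libraries at day 6 and 6 at day 10. A further 4 libraries of CD150+ CD48- HSCs at day 10 were not part of the counts. Of the 113 genes higher in Uncultured, 68 (60.2%) had all 4 libraries of cultured HSCs above all 10 libraries of HSCs from 5-FU-treated mice, and 5 had them below. Of the 80 lower genes, 37 (46.3%) had the cultured libraries below and 4 above. Over all genes tested the shares were 17.4% above and 14.6% below. Treatment and experiment cannot be told apart in this comparison. On a scale common to all 30 libraries, Rps6-ps4 (LOC105244208) averaged 1124 CPM in Untreated, 1190.2 and 1276 CPM in HSCs taken 6 and 10 days after 5-FU, 562 CPM in Uncultured and 579 CPM in cultured HSCs. In the CD150+ CD48- HSCs at day 10 it averaged 764 CPM (672 to 907), between the sets. Rpl29 averaged 98.0 CPM in Untreated and 193 in Uncultured, with 140.3 and 123 CPM at 6 and 10 days after 5-FU and 234 CPM in culture. The CD150+ CD48- HSCs at day 10 averaged 215 CPM (206 to 226), on the side of the Uncultured set.

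Sequence properties moved with the sets as well. In GENCODE M21 transcripts, the median GC content was 49.8% over all genes tested, 53.01% in the genes higher in Uncultured and 50.1% in the lower ones. The fifth of genes with the highest GC, 55.6 to 72.4%, had a median log2 difference of 0.11 and held 43 higher against 7 lower calls. The other 4 bins of equal size, in order of rising GC, held 18 against 9, 20 against 13, 12 against 24 and 18 against 22. The part of GC content in the calls was not tested. Genes with under 10% unique reads made up 23 of the 193 calls, 11.9%, against 7.66% of all genes tested. In unique reads, 174 of the 193 could be tested, of which 173 had the same direction and 119 passed. In intron reads 1 gene was called and 122 of 177 kept their direction. Among the named genes, the sign turned there for Rpl29, Nckap5l, Slc52a2, Ufc1, Hmgn1, Cct8, Uqcrc1, Cdkn1b, Eef1a1, Naca and Kit, and the reason was not tested. DESeq2 called 627 genes, among them 184 of the 193.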

How the data were processed

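Per the submitters' processing notes the build was mm10; no aligner or counter is named (not given in the sources used here). The deposited table gives, for each gene and library, counts of unique exon reads, total exon reads and intron reads, and the authors' TPM, which recomputation matched to within 0.001. Entries of 1 gene identifier were summed. Total exon reads were fitted with edgeR 4.0.16 (TMM, filterByExpr, quasi-likelihood test, Benjamini-Hochberg adjusted p under 0.05), signed Uncultured minus Untreated. Tested on simulated data for this comparison (12578 genes), it recovered 29.9% of 1.5-fold, 70.1% of 2-fold and 92.4% of 4-fold changes, and 7.91% of 139 calls were false.

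Named genes were the 12 largest rises and falls (called, sets not overlapping, at least 32 CPM in the higher set), the 2 smallest p per list, the gate genes, the 30 highest by TPM (exon length at least 300 bases) with up to 5 per list, and the 20 most and 10 least variable. A few genes that this rule names are not reported here. Other genes were named after their values were seen. Members and lists were chosen with earlier results of these data known. DESeq2 1.42.0 and the other alternatives are in the closing section.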

Additional observations from a re-analysis of the deposited data

Results flagged for a closer look

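A library far from the other 3 of its set was found in 15 of 168 groups of 4 examined over 84 genes, lists and library measures. Chance gives about 1 in 20. The 84 include the 20 genes with the largest spread within sets, which were chosen for that spread and account for 8 of the 15, so no excess is read from the number. Of the 15, 8 were in Untreated 3. Values are log2(CPM + 1). Untreated 3 was highest for S100a8 at 9.85, Ngp at 8.75, S100a9 at 8.09, Ltf at 7.99 and Chil3 at 7.95, genes of neutrophil granules and cytosol, and for the mean of the granule list at 5.48, against 2.29 to 2.34 in the other 3. It was lowest for the red cell anion exchanger Slc4a1 at 1.94, against 7.36 to 7.70, and for the mean of the translation factors at 7.67, against 7.69. In Uncultured 2 the platelet chemokine Ppbp was highest at 7.50, and the mean of the megakaryocyte list was 5.98, against 4.30 to 4.47. Eps8l1 was lowest in Untreated 4 at 2.22, against 5.67 to 6.16.

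4 genes that differed between the sets also had a library apart from the other 3 of its set. Amigo2 was highest in Untreated 1 at 6.25 and Rnf126 in Uncultured 3 at 5.86, both farther from the other set. Tspan3 was highest in Uncultured 1 at 6.95 and Nckap5l lowest there at 5.07, both nearer to the other set.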

How the results depend on the processing

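The 193 calls became 197 with RLE size factors, 156 without a filter on low counts and 187 with entries as deposited. DESeq2 called 627 (328 higher, 299 lower) and a fit of all 30 libraries 626. Unique exon reads gave 122, of which 63.1% were higher against 58.5%, and intron reads 1. With the replicate number as a block (replicate block) 3 were called. Same-numbered libraries did not deviate together (r from -0.24 to -0.02). This cannot exclude shared handling, so whether the numbers pair the libraries is not known. Leaving out 1 library gave 31 to 121 calls. Leaving out the 3 libraries with granule transcripts, chosen after seeing the data, gave 2.

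Ribosomal protein calls, 16 at first, were 29 with DESeq2, 6 in unique reads, 1 with the replicate block, 0 in intron reads, 3 to 14 with 1 library left out and 0 without the 3 libraries. HSC surface calls, 4 at first, were 11 with DESeq2 and 0 with the replicate block and in intron reads. They were 1 to 3 with 1 library left out and 0 without the 3 libraries. The DESeq2 counts, of 83 ribosomal and 45 surface genes tested, stand beside 627 of 12578 genes in all. Of the 30 most abundant genes 12 remained in unique reads and 11 by CPM; of the 20 most variable, 12 remained at 50 CPM or more.

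Direction was reversed for 11 named genes, each in intron reads: Rpl29 (-0.013), Nckap5l (-0.051), Slc52a2 (-0.14), Hmgn1 (-0.67), Cct8 (-0.044), Uqcrc1 (-0.021), Cdkn1b (-0.0086), Ufc1 (0.31), Eef1a1 (0.35), Naca (0.17) and Kit (0.14). The cause was not tested.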
